A study of Mus musculus with 4 samples.

Results

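The abundant long noncoding RNAs (lncRNAs) and small nucleolar RNA (snoRNA) host genes described here are 8 named genes, Malat1, Neat1, Gas5, Snhg1, Snhg5, Snhg12, Kcnq1ot1 and Mir142hg. They were taken by name from the 41214 genes of the count table, where 7 of the 8 had a row under their GENCODE identifier. Snhg1 (ENSMUSG00000108414) was not matched to a row, an older identifier of it was not searched for, and the gene was not analysed here beyond its locus. RNA-seq was done on unstimulated B220+ splenocytes from 2 MIZ-1WT and 2 MIZ-1△POZ samples. MIZ-1, encoded by Zbtb17, is a zinc finger transcription factor whose POZ domain mediates contacts with itself and with other proteins. In MIZ-1△POZ mice the Cre recombinase is driven by the Mb1 (Cd79a) promoter, which is active in the B lineage, and removes the floxed part of Zbtb17 that encodes the POZ domain, so a truncated protein without it is made. The mice were young adults on a C57BL/6 background, and B220+ cells were enriched with a biotinylated antibody and magnetic beads. Whether the MIZ-1WT controls carried Cre is not given in the sources used here, nor is it stated whether a library came from 1 mouse or from several. The p-values therefore measure the spread between these samples.

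LncRNAs are transcribed by RNA polymerase II like messenger RNAs but are not known to encode proteins. Malat1 accumulates in nuclear speckles, which are stores of splicing factors, and Neat1 is the scaffold on which paraspeckles assemble. Kcnq1ot1 is a long, mostly unspliced nuclear RNA made from the paternal allele, antisense to Kcnq1, and it silences neighboring genes of its imprinted domain in cis. SnoRNA host genes are built differently. Their introns carry snoRNAs, which are cut out of the spliced-out intron and guide chemical modification of ribosomal RNA, while the spliced exons leave the nucleus, are bound by ribosomes and are degraded by nonsense-mediated decay. Several hosts share with ribosomal protein genes a 5′ terminal oligopyrimidine (5′TOP) start, a C followed by a run of pyrimidines, which couples the fate of the RNA to translation and growth signals. Mir142hg is the primary transcript of miR-142, a microRNA abundant in all blood cell lineages.

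The start sites are shown first, because the 5′TOP sequence is known from several host genes. Each line gives 50 bases before and 50 bases from an annotated start on, from RefSeq with GRCm38.p6 coordinates, and capitals mark a tract that begins with C, goes on with at least 4 further pyrimidines and starts within 10 bases of the start site. The last line, Malat1, is a start without such a tract.
Gas5, second annotated start, chr1:161035116-161035215, plus strand: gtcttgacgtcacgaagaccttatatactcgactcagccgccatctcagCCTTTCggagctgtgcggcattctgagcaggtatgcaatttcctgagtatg
Snhg12, chr4:132308628-132308727, plus strand: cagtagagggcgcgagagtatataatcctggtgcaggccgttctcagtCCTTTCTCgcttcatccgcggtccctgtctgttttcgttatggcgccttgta
Snhg5, chr9:88522848-88522947, minus strand: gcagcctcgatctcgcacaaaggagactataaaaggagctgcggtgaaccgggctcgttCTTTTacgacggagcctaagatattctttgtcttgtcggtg
Malat1, chr19:5802623-5802722, minus strand: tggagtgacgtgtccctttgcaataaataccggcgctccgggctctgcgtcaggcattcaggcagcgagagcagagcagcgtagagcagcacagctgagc

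The tract was 6 bases long in Gas5, 8 in Snhg12 and 5 in Snhg5. It was not found at the start of Malat1, of Kcnq1ot1 or of Snhg1, nor at the other annotated start of Gas5. Such a tract is common: 30.7% of 32851 RefSeq promoters held one. Counted by gene, 5 of 12 noncoding snoRNA hosts with a promoter entry had a tract at a start (41.7%), against 34.4% of all 27025 genes. Searched on both strands of 300 bases around each start, the cAMP response element TGACGTCA lay 46 bases before the second start of Gas5 and in 1.79% of all promoters. The TATA letters TATAAA lay 23 bases before the start of Snhg5, 29 bases before that of Snhg1 and in 13.6% of all promoters. The E-box CACGTG, a letter string bound by MYC and its partners, was in none of the member windows and in 7.15% of all promoters.

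The second set of sequences is what the hosts release. In the GENCODE annotation of GRCm38, 25 snoRNA genes lay inside the 4 host genes, 10 in Gas5, 8 in Snhg1, 5 in Snhg12 and 2 in Snhg5, and all 25 lay in an intron of a spliced transcript of their host. The sequences below show both classes, with capitals for the box C (TGATGA) and box D (CTGA) of methylation guides and for the ACA box of a pseudouridylation guide.
Snord47, in Gas5, chr1:161038082-161038158, plus strand: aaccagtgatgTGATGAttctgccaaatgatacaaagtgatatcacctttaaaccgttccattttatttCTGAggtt
Snord80, in Gas5, chr1:161037601-161037681, plus strand: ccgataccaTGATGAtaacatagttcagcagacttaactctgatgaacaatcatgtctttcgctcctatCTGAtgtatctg
Snord50a, in Snhg5, chr9:88521529-88521600, minus strand: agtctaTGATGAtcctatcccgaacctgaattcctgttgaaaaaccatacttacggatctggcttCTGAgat
Snord50b, in Snhg5, chr9:88521797-88521868, minus strand: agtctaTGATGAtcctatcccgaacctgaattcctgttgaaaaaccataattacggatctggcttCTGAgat
Snord99, in Snhg12, chr4:132310691-132310764, plus strand: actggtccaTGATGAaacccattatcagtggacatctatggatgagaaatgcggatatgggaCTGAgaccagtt
Snora61, in Snhg12, chr4:132310240-132310369, plus strand: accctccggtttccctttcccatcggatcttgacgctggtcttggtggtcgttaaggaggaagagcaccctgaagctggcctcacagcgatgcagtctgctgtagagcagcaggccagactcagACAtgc

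Both C/D boxes were found in 8 of the 10 snoRNA genes of Gas5, in 6 of 8 of Snhg1, in both of Snhg5 and in 1 of 5 of Snhg12, where 3 others carried the ACA box, counting the pair of overlapping entries for Snora16a. The counts for Gas5 also include a pair of overlapping entries for Snord80, both with the boxes. Snord50a and Snord50b are 72 bases each and differ at 1 position, C50A, counted from 1 at the 5′ end with the Snord50a base first. The count table follows the hosts, not these products. Of the 25 snoRNA genes 23 had a row, and 22 of those stood at 0 in all 4 libraries. The exception, Snora16a in Snhg12, had 34 and 32 counts in MIZ-1WT and 43 and 47 in MIZ-1△POZ (log2 fold change 0.35 ± 0.25 (SE), adjusted p = 0.302). Reads on an overlap of host and snoRNA features could be set aside as ambiguous by the counting, and its settings for overlap are not given in the sources used here, so a row at 0 carries no information on snoRNA abundance.

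The 4 libraries held from 43026814 to 46387209 counts on genes, and levels are given in CPM, the counts of a gene scaled to library size with TMM factors. Zbtb17 was at 47.8 and 46.3 CPM in MIZ-1WT and at 37.3 and 38.03 in MIZ-1△POZ (log2 fold change −0.32 ± 0.06 (SE), adjusted p = 0.00857). Sex-linked RNA separated the genotypes: Xist stood at 1.12 and 1.43 CPM in MIZ-1WT and at 801 and 930 in MIZ-1△POZ, and 4 Y-linked genes summed to 844 to 848 against 38.1 to 39.3, so genotype and sex cannot be told apart. B cell identity genes were abundant in every library, with 10 pan-B markers summing to between 14986 and 15391 CPM in MIZ-1WT and between 13308 and 13852 in MIZ-1△POZ, where 7 fell and 1 rose (2 and 1 with scaling to all uniquely aligned reads). All 12 macrophage markers rose, from a summed 876 to 1172 CPM to 3278 to 5237 CPM, with none at 0, and 5 of 6 plasma cell markers rose, from 739 to 1064 CPM to 2321 to 2488 CPM. Of 8 T cell markers 1 (Cd4) rose and summed levels were 52.0 to 67.8 and 64.9 to 70.2 CPM, while none of 4 tested neutrophil and none of 6 erythroid markers passed the test in edgeR or DESeq2 (2 and 0 at an unadjusted p under 0.05).

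All 7 member genes with a row passed the filter and the test, 3 of them higher and 4 lower in MIZ-1△POZ B220+ splenocytes. The 3 that rose were the snoRNA hosts Gas5, Snhg5 and Snhg12, and the 4 that fell were Malat1, Neat1, Kcnq1ot1 and Mir142hg. Changes were frequent in the whole table: of 14554 genes tested with edgeR's quasi-likelihood test at an adjusted p of 0.05, 40% were called, 21.1% higher and 18.9% lower. The ranges of the 2 genotypes did not overlap for any of the 7, which was also true of 74.8% of all tested genes. With the added size limit of 0.6 on the log2 scale that the study used, 2 members remained, Neat1 and Mir142hg, both lower, against 4.48% of all genes called lower and 17.8% called in either direction. The direction of all 7 was the same under every alternative that gave a value.

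**Figure D1:**
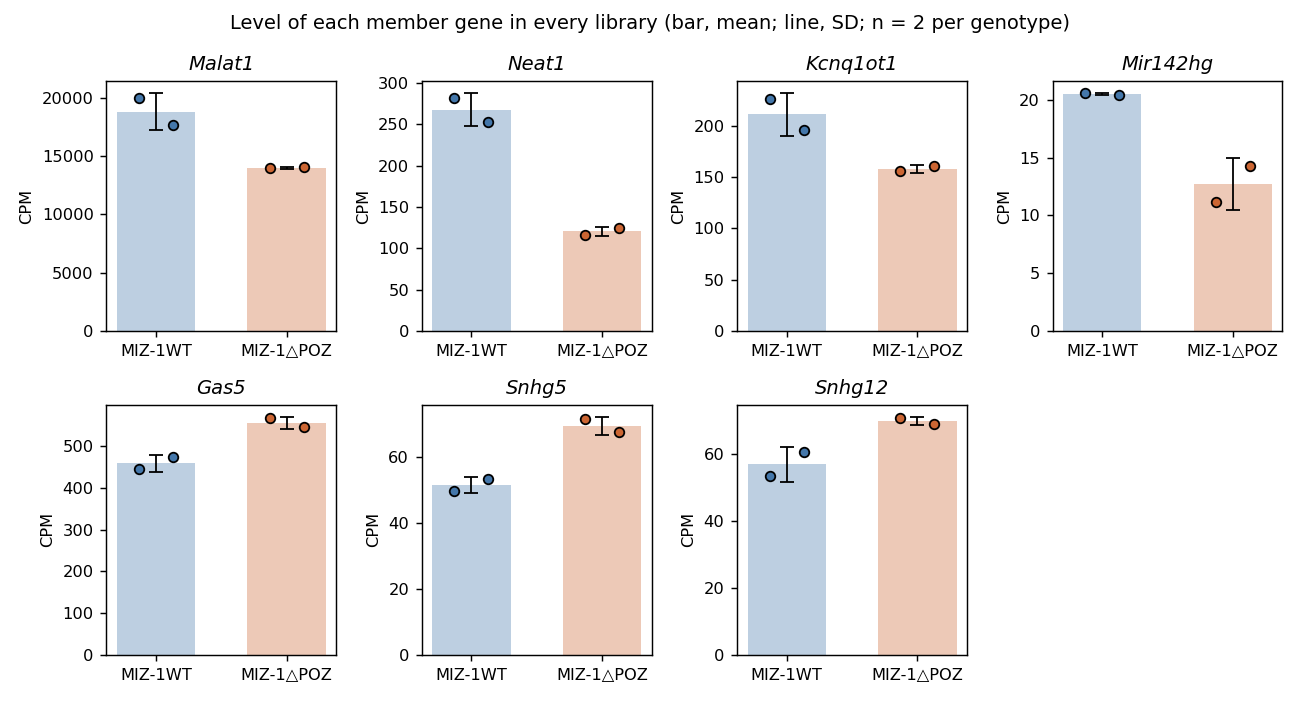
CPM of each member gene (vertical axis from 0, its own scale per panel) in the 2 MIZ-1WT and 2 MIZ-1△POZ libraries; points are libraries, bars means and lines SD. Malat1, Neat1, Kcnq1ot1 and Mir142hg sit lower and Gas5, Snhg5 and Snhg12 higher in both MIZ-1△POZ libraries, with no overlap between genotypes.

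Malat1 (ENSMUSG00000092341, chr19:5795690-5802672, minus strand, GRCm38), the nuclear speckle RNA, had the second highest counts of the table. It took 1.96% and 1.73% of all gene counts in the MIZ-1WT libraries and 1.43% and 1.42% in the MIZ-1△POZ libraries. Its level was 19938 and 17668 CPM in MIZ-1WT and 13942 and 14026 CPM in MIZ-1△POZ. The MIZ-1△POZ libraries lay close to each other and below both controls, which differed more among themselves. The means were 18803 ± 1606 and 13984 ± 59.6 CPM (SD, n = 2 each), a log2 fold change of −0.43 ± 0.10 (SE, 95% interval −0.67 to −0.18, adjusted p = 0.0197). The call was lost when libraries were scaled to all uniquely aligned reads (−0.16, adjusted p = 0.324), without MIZ-1WT replicate 1 (adjusted p = 0.0896) and without either MIZ-1△POZ replicate (0.0639 and 0.0572).

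Neat1 (ENSMUSG00000092274, chr19:5824708-5845478, minus strand), the architectural RNA of paraspeckles, had the largest change of the 7. It was at 282 and 253 CPM in MIZ-1WT and at 117 and 125 CPM in MIZ-1△POZ, from between 5465 and 12302 counts. Both MIZ-1△POZ values lay far below both control values relative to the difference within either pair. The means were 268 ± 20.2 and 121 ± 5.58 CPM (SD, n = 2 each), 2.22-fold lower, with a log2 fold change of −1.15 ± 0.07 (SE, 95% interval −1.32 to −0.98, adjusted p = 0.000758). Of all tested genes, 1.40% had a lower log2 fold change. Neat1 has a short and a long isoform that share the 5′ end, and the gene count does not separate them. Neat1 stayed past the threshold in all 13 alternatives, with log2 fold changes from −1.23 to −0.88.

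Kcnq1ot1 (ENSMUSG00000101609, chr7:143203458-143296549, minus strand) was at 226 and 196 CPM in MIZ-1WT and at 155 and 161 CPM in MIZ-1△POZ. As for Malat1, the MIZ-1△POZ pair was tight and below both controls. The means were 211 ± 21.0 and 158 ± 3.80 CPM (SD, n = 2 each), a log2 fold change of −0.42 ± 0.07 (SE, 95% interval −0.60 to −0.23, adjusted p = 0.00932). The call was lost with scaling to all uniquely aligned reads (−0.15, adjusted p = 0.115) and without MIZ-1WT replicate 1 (−0.31, adjusted p = 0.0509). Kcnq1, the potassium channel gene on the opposite strand, had 3 and 6 counts in MIZ-1WT and 26 and 3 in MIZ-1△POZ and was not tested.

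Mir142hg (ENSMUSG00000084796, chr11:87755577-87757270, plus strand), the miR-142 primary transcript, had the fewest counts of the members, between 531 and 897 counts. The mature microRNAs of the locus are printed here from RefSeq (GRCm38.p6), with the seed, bases 2 to 8, in capitals. The seed decides which messenger RNAs a microRNA pairs with.
mmu-miR-142a-5p, chr11:87756867-87756887, plus strand: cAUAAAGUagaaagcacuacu
mmu-miR-142a-3p, chr11:87756903-87756925, plus strand: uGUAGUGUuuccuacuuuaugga
mmu-miR-142b, chr11:87756906-87756925, minus strand: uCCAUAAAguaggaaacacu

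The 3 mature microRNAs share no seed. Of them, miR-142b lies on the strand opposite to Mir142hg and so is not cut from this transcript. Mature microRNAs were not measured by these libraries. The row of Mir142b, on the opposite strand, stood at 0 in all 4 of them. Mir142, on the strand of Mir142hg, had no row under its GENCODE identifier. Mir142hg was at 20.6 and 20.4 CPM in MIZ-1WT and at 11.2 and 14.3 CPM in MIZ-1△POZ. Here the controls were nearly identical and the MIZ-1△POZ pair was the more spread. The means were 20.5 ± 0.0886 and 12.7 ± 2.23 CPM (SD, n = 2 each), a log2 fold change of −0.69 ± 0.13 (SE, 95% interval −1.01 to −0.37, adjusted p = 0.0105). The call was lost without MIZ-1WT replicate 1 (adjusted p = 0.0672) and without MIZ-1WT replicate 2 (adjusted p = 0.0579). Of the 4 tested microRNA host genes, the other one that passed was Mir17hg, the transcript of the proliferation-associated miR-17-92 cluster, which fell from 65.4 and 69.4 to 45.3 and 42.4 CPM (log2 fold change −0.62 ± 0.06 (SE), adjusted p = 0.00196). Mir22hg (0.51, adjusted p = 0.063) and Mir155hg (−0.08, adjusted p = 0.630) did not pass.

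Gas5 (ENSMUSG00000053332, chr1:161034422-161038539, plus strand), a 5′TOP host whose RNA accumulates in growth-arrested cells, had the highest level of the 3 measured hosts, also per exon length. It was at 445 and 474 CPM in MIZ-1WT and at 567 and 546 CPM in MIZ-1△POZ. Both MIZ-1△POZ values were above both controls. The means were 459 ± 20.5 and 556 ± 14.7 CPM (SD, n = 2 each), a log2 fold change of 0.28 ± 0.05 (SE, 95% interval 0.14 to 0.41, adjusted p = 0.0121). Without MIZ-1WT replicate 1 the change was 0.23 with an adjusted p of 0.0947.

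Snhg5 (ENSMUSG00000097195, chr9:88521050-88522929, minus strand), the host of the near-identical pair Snord50a and Snord50b, was at 49.7 and 53.3 CPM in MIZ-1WT and at 71.4 and 67.5 CPM in MIZ-1△POZ. The gap between genotypes was larger than the difference within either pair. The means were 51.5 ± 2.53 and 69.4 ± 2.78 CPM (SD, n = 2 each), a log2 fold change of 0.43 ± 0.06 (SE, 95% interval 0.28 to 0.58, adjusted p = 0.00486). Like Neat1, it was past the threshold in all 13 alternatives.

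Snhg12 (ENSMUSG00000086290, chr4:132308623-132311024, plus strand), which carries 1 C/D and 3 ACA-box snoRNA genes among its 5, was at 53.4 and 60.7 CPM in MIZ-1WT and at 70.9 and 69.0 CPM in MIZ-1△POZ. The controls differed more from each other than the MIZ-1△POZ pair did, and all MIZ-1△POZ values were higher. The means were 57.0 ± 5.20 and 69.95 ± 1.30 CPM (SD, n = 2 each), a log2 fold change of 0.29 ± 0.07 (SE, 95% interval 0.11 to 0.48, adjusted p = 0.0257). Without MIZ-1WT replicate 1 it was 0.20 with an adjusted p of 0.136.

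**Figure D2:**
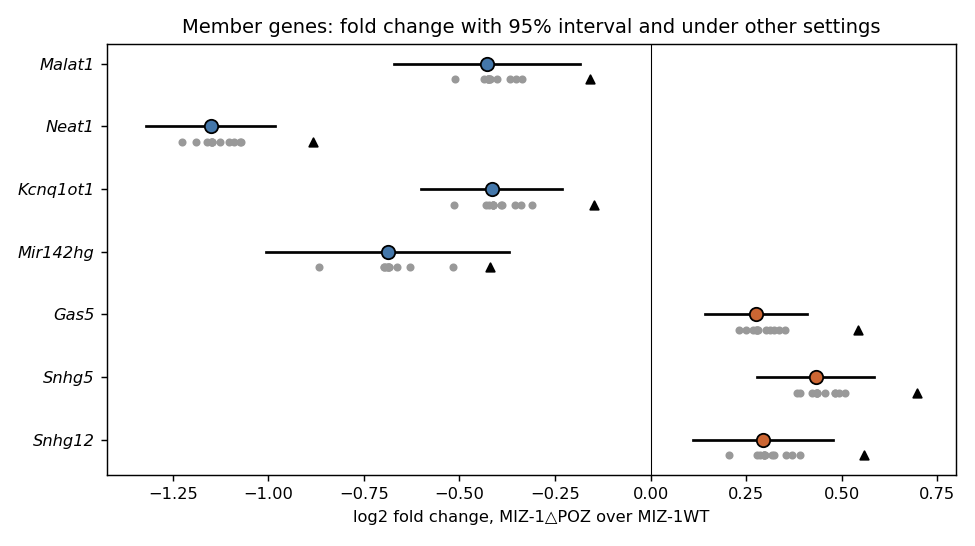
Log2 fold change (MIZ-1△POZ over MIZ-1WT, horizontal axis) of each member gene, with the 95% interval from edgeR as a line; small gray points are the alternatives and black triangles the scaling to all uniquely aligned reads. Each member stays on its side of 0, from Neat1 at −1.15 to Snhg5 at 0.43, and the triangles are shifted to the right for all 7.

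A change of scaling shifts the log2 fold change of every gene by about the same amount. The order of the members under other scalings is therefore fixed in advance and tests nothing. When libraries were scaled to all uniquely aligned reads, the median over all genes moved by 0.27 on the log2 scale, and relative to the median of all genes the 7 changes were −1.14 for Neat1, −0.68 for Mir142hg, −0.42 for Malat1, −0.41 for Kcnq1ot1, 0.28 for Gas5, 0.30 for Snhg12 and 0.44 for Snhg5. Ratios of 2 members within a library need no scaling. Malat1 counts per Gas5 count were 44.8 and 37.3 in MIZ-1WT and 24.6 and 25.7 in MIZ-1△POZ, and Neat1 counts per Gas5 count were 0.634 and 0.535 against 0.206 and 0.228. Malat1 counts per Neat1 count were 70.7 and 69.7 against 119.5 and 112.6, with no overlap between genotypes. In contrast, the ratio of Gas5 to Snhg12 was 8.33 and 7.80 in MIZ-1WT and 7.99 and 7.91 in MIZ-1△POZ, and that of Malat1 to Kcnq1ot1 was 88.3 and 90.1 against 89.7 and 87.2, overlapping between genotypes. These ratios are descriptions. An exact permutation test of 2 against 2 libraries cannot give a p below 0.333.

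Per length of annotated exon, the members kept a fixed order in both genotypes. In CPM per kb, Malat1 led with a mean level of 2693 in MIZ-1WT and 2003 in MIZ-1△POZ. Gas5 followed with 122 and 148, then Mir142hg with 76.2 and 47.3, Snhg5 with 29.8 and 40.1, Snhg12 with 23.7 and 29.1, Neat1 with 12.9 and 5.81 and Kcnq1ot1 with 2.27 and 1.70. Only Snhg5 and Snhg12, among neighbors in this order, overlapped over the 4 libraries, although in MIZ-1△POZ replicate 1 Mir142hg (41.5) and Snhg5 (41.3) were almost level. The lengths are those of GENCODE, and the short exon length of Mir142hg, 0.269 kb, and the long unspliced span of Kcnq1ot1, 93.1 kb, set their places.

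Malat1, Neat1 and Kcnq1ot1 are nuclear RNAs, and the reads that the counting assigned to no feature moved with them. These reads made up 47.5% and 45.1% of uniquely aligned reads in MIZ-1WT and 38.4% and 37.8% in MIZ-1△POZ. Their part in the result was not tested. In bulk RNA, fewer cells of a type and less RNA per cell cannot be told apart, and the macrophage and plasma cell markers given above moved with every member. Between the MIZ-1△POZ replicates the summed macrophage markers were 1.60-fold higher in replicate 1 (5237 against 3278 CPM), and replicate 1 over replicate 2 was 0.994 for Malat1, 0.937 for Neat1, 0.967 for Kcnq1ot1, 1.04 for Gas5, 1.06 for Snhg5, 1.03 for Snhg12 and 0.780 for Mir142hg. Within MIZ-1WT, replicate 2 had the higher macrophage sum. In both genotypes the replicate with the higher macrophage sum also had the higher plasma cell sum. That replicate had the lower Malat1, Neat1, Kcnq1ot1 and Mir142hg and the higher Gas5, Snhg5 and Snhg12, the directions of the genotype difference. Some of these differences were slight, as for Mir142hg in MIZ-1WT (20.6 and 20.4 CPM) and Malat1 in MIZ-1△POZ (13942 and 14026 CPM). With 2 libraries per genotype, the part of these cells in the result was not tested.

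The genes next to each member show whether a whole locus moved. Malat1 and Neat1 lie 22.04 kb apart on chromosome 19, and both fell. Frmd8, the next tested gene on the Neat1 side, did not pass the test (−0.14, adjusted p = 0.115). Beside Mir142hg both neighbors fell, Tspoap1 at −0.52 ± 0.10 (SE, adjusted p = 0.0112) and the elongation factor gene Supt4a at −0.20 ± 0.05 (SE, adjusted p = 0.0258), although scaling to all uniquely aligned reads left Tspoap1 at −0.26 (adjusted p = 0.106) and turned Supt4a to 0.06 (adjusted p = 0.448). Around Kcnq1ot1 the nearest tested genes, Trpm5 (−0.72, adjusted p = 0.0746) and Cdkn1c (0.14, adjusted p = 0.835), lay over 100 kb away and were low, at 0.275 to 2.36 CPM. Without MIZ-1△POZ replicate 1 Trpm5 passed (−1.05, adjusted p = 0.0385).

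Among the host loci, Zbtb37 overlaps the 5′ end of Gas5 on the opposite strand and fell by 0.41 ± 0.08 (SE, adjusted p = 0.0127), and since the strand setting of the counting is not given in the sources used here, reads on the overlap cannot be assigned with certainty. That call was lost with scaling to all uniquely aligned reads (−0.15, adjusted p = 0.175). Serpinc1, the nearest tested gene at lower coordinates that does not overlap Gas5, was at 0.387 to 0.523 CPM and did not pass (−0.35, adjusted p = 0.406). The neighbors of Snhg12, Trnau1ap (0.06, adjusted p = 0.374) and Taf12 (−0.05, adjusted p = 0.533), and those of Snhg5, Zfp949 (−0.12, adjusted p = 0.231) and Syncrip (−0.02, adjusted p = 0.757), did not pass, but with scaling to all uniquely aligned reads Trnau1ap was called higher at 0.33 (adjusted p = 0.005) and Syncrip at 0.25 (adjusted p = 0.0115). At the Snhg1 locus, where no row was matched to the host, the amino acid transporter subunit gene Slc3a2, 0.106 kb away, rose by 0.26 ± 0.05 (SE, adjusted p = 0.0129) and Wdr74 was at 0.01 (adjusted p = 0.904), which the same scaling turned into a call at 0.28 (adjusted p = 0.018).

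**Figure D3:**
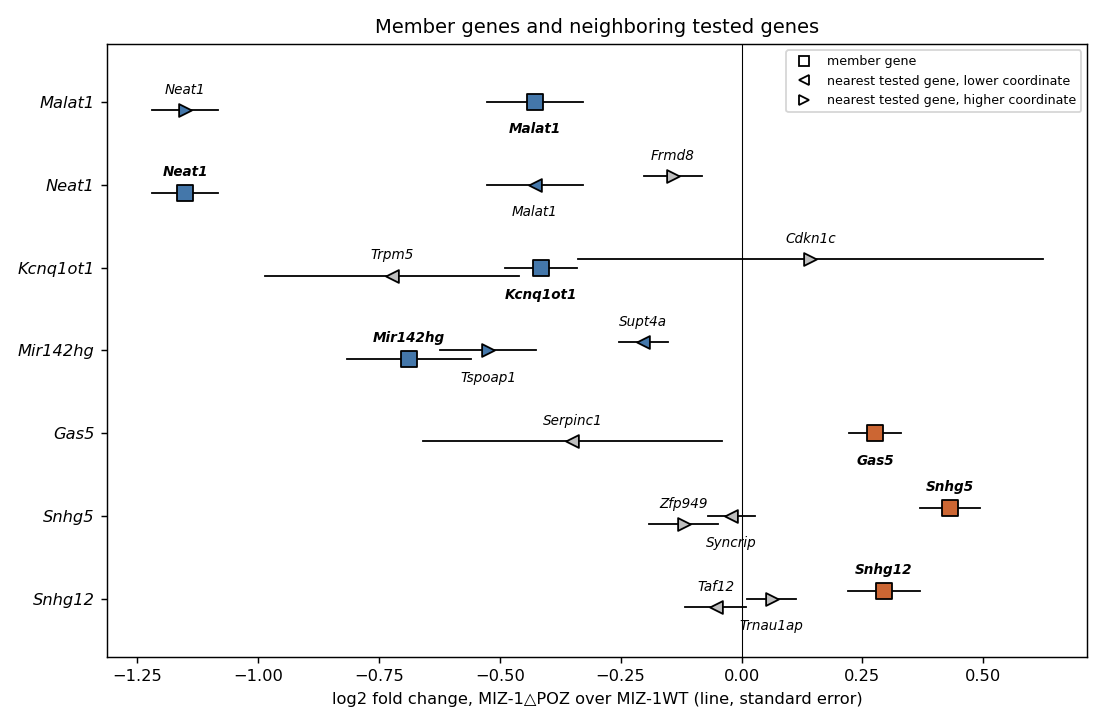
Log2 fold change (MIZ-1△POZ over MIZ-1WT, horizontal axis; lines, standard error) of each member gene (square) and of the neighboring tested genes described in the text (triangles), 1 row per member; orange is higher and blue lower at an adjusted p of 0.05, gray not past it. Snhg5 at 0.43 and Snhg12 at 0.29 are orange beside gray neighbors, of which Trnau1ap and Syncrip pass when libraries are scaled to all uniquely aligned reads, while Mir142hg has Tspoap1 at −0.52 beside it.

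The remaining noncoding snoRNA hosts were looked at as a group, by symbol. Apart from the members, 10 such hosts were tested, of which 4 rose (40%), none fell and 6 did not pass in edgeR, with a median log2 fold change of 0.16. At an unadjusted p under 0.05, 5 were higher and 0 lower, and DESeq2 called 3 higher and 0 lower. Over all 14554 genes 21.1% rose and the median was −0.01. The 4 were Snhg18 (1.38 ± 0.16 (SE), adjusted p = 0.00279, 1.83 to 1.97 CPM in MIZ-1WT and 4.75 to 5.17 in MIZ-1△POZ), Snhg15 (0.40 ± 0.11 (SE), adjusted p = 0.0304), Snhg6 (0.23, adjusted p = 0.0325) and Zfas1 (0.23, adjusted p = 0.0353). Of the 6 others, Epb41l4aos was at 0.25 (adjusted p = 0.0883), Snhg3 at 0.08 (0.527), Snhg9 at 0.03 (0.936), Snhg17 at −0.10 (0.167), Snhg20 at −0.13 (0.129) and Snhg14 at −0.36 (0.512). Together with Snhg5 and Snhg12, 6 of 12 rose, 3 of 5 when a mean level of 30 RPM was required and 2 without MIZ-1WT replicate 1.

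The proteins that act on these RNAs were taken as fixed lists. Scaling to all uniquely aligned reads called 6410 of all 14554 tested genes higher and 731 lower, against 3076 and 2746 in the reported fit. List counts under that scaling are to be read against these totals, here and below. Of 19 snoRNP proteins and assembly factors, 5 rose and 2 fell (26.3% and 10.5%, against 21.1% and 18.9% of all genes; median 0.09). Rpap3, an assembly co-chaperone, was at 0.51 ± 0.09 (SE, adjusted p = 0.0079), the box H/ACA core protein Nhp2 at 0.26 and the H/ACA assembly factor Naf1 at 0.61, while Znhit3, a C/D assembly factor, was at −1.25 ± 0.11 (SE, adjusted p = 0.0016) and the C/D core protein Nop56 at −0.20. With scaling to all uniquely aligned reads 15 rose and 1 fell, while 0 rose and 1 fell without MIZ-1WT replicate 1, 1 and 1 without MIZ-1WT replicate 2, and 3 rose without MIZ-1△POZ replicate 1. Of 15 genes of nonsense-mediated decay, which removes spliced host RNAs, none rose in edgeR and 5 fell (median −0.17), among them Smg6 (−0.34), the endonuclease of the pathway, Smg5 (−0.24), Upf2 (−0.27) and Smg1 (−0.29), but with scaling to all uniquely aligned reads 6 rose and none fell, and none fell without MIZ-1WT replicate 1 or without replicate 2. In the reported fit 0% rose and 33.3% fell, against 21.1% and 18.9% of all genes. The median relative to that of all genes was −0.16 under both scalings. At an unadjusted p under 0.05 in the reported fit 1 was higher and 8 lower, and DESeq2 called 0 higher and 4 lower.

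Around the nuclear RNAs, 8 of 16 paraspeckle protein genes fell and 2 rose (median −0.17). These are 50% and 12.5%, against 18.9% and 21.1% of all genes. With scaling to all uniquely aligned reads 8 rose and none fell, while the median relative to that of all genes stayed at −0.16. Sfpq, a core paraspeckle protein that binds Neat1, was at −0.39 ± 0.06 (SE, adjusted p = 0.00499), Pspc1 at −0.31 ± 0.05 (SE, adjusted p = 0.00856), Cpsf6 at −0.34 and Tardbp at −0.26, and Dazap1 (0.39) and the chromatin remodeler Smarca4 (0.16) were the 2 that rose. Of 14 nuclear speckle protein genes 5 fell and 1 rose (35.7% and 7.14%, median −0.15). Under the same scaling none fell and 4 rose, while the median relative to that of all genes stayed at −0.14. The splicing factor genes Srsf7 (−0.31), Srsf3 (−0.25), Acin1 (−0.23) and Srrm1 (−0.40) were among those that fell and U2af1 (0.24) was the one that rose. Neat1 at −1.15 lay below every one of these proteins. Without MIZ-1WT replicate 1 the count of paraspeckle genes that fell was 1 and that of speckle genes 0.

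Of 17 genes listed for the chromosomal domain around Kcnq1ot1, 12 were tested, of which 1 rose and 2 fell (median −0.13). These are 8.33% and 16.7%, against 21.1% and 18.9% of all genes. Under scaling to all uniquely aligned reads 2 rose and none fell, while the median relative to that of all genes stayed at −0.12. Whether Kcnq1ot1 regulates any of the listed genes in these cells was not tested. Without MIZ-1WT replicate 1 the number that fell was 1, and without MIZ-1WT replicate 2 it was 0. Cd81, a tetraspanin of the B cell surface, rose from 223 and 228 CPM to 316 and 297 CPM (0.45 ± 0.05 (SE), adjusted p = 0.0025). Tspan32 was at −0.30 ± 0.05 (SE, adjusted p = 0.00741) and Osbpl5 at −0.30 ± 0.06 (SE, adjusted p = 0.0104). The remaining 9 tested genes did not pass.

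**Figure D4:**
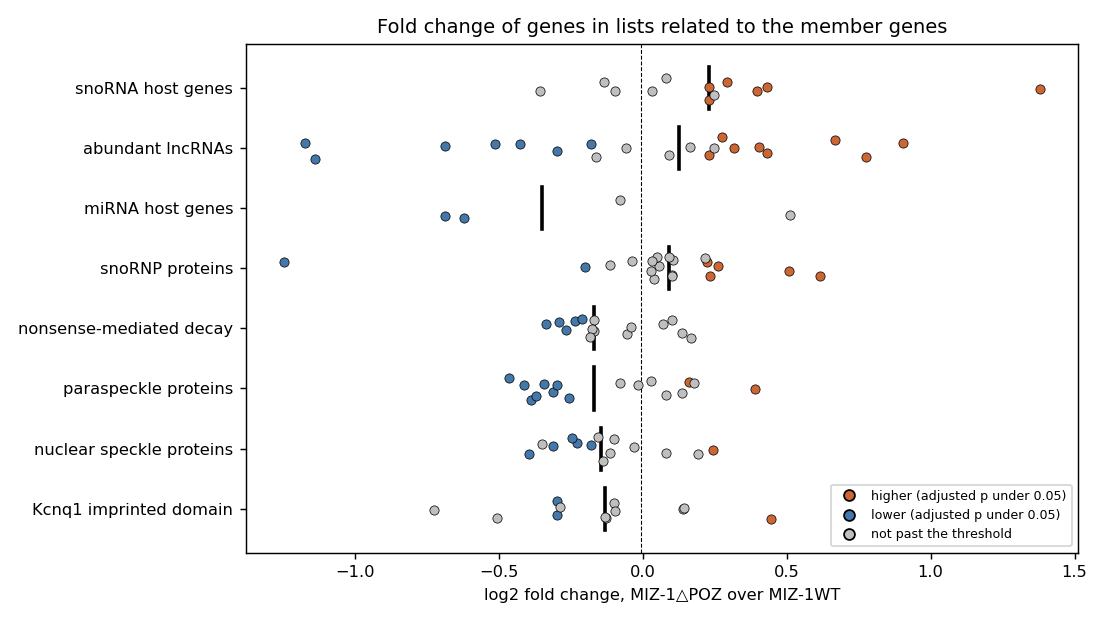
Log2 fold change (MIZ-1△POZ over MIZ-1WT, horizontal axis) of every tested gene in 8 lists related to the members (rows); orange is higher, blue lower and gray not past an adjusted p of 0.05, thick bars are list medians and the dashed line is the median of all tested genes, −0.01. The snoRNA hosts, which here include Snhg5 and Snhg12 but not Gas5, have a median of 0.23 and no blue point. The paraspeckle list has a median of −0.17. With scaling to all uniquely aligned reads that median is 0.10 and the median of all genes 0.26, and the gap between them stays at −0.16.

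The genes most like each member were those at the smallest Euclidean distance between log2 CPM values over the 4 libraries, each centered on its own mean. For Neat1 these were Satb1, a chromatin organizer of lymphocytes (distance 0.0254, log2 fold change −1.14), and the lincRNA Gm6410 (0.0570), and 6 genes in all lay within 0.1. Gas5 had 381 such genes, led by Pex2 and Dars, the cytosolic aspartyl-tRNA synthetase. The nearest were Pde7a and Zcchc2 for Malat1, Abtb2 and Zfp326 for Kcnq1ot1, and Fmnl1 and Tut4 for Mir142hg. They were Fes and Galnt12 for Snhg5, and Qsox1 and Anks6 for Snhg12. Of these, Anks6 did not pass the edgeR test (0.34, adjusted p = 0.559). Within 0.1 of Mir142hg there were 20 genes, and from 105 to 171 for the other 4, so with 4 libraries a profile like that of Neat1 was rare and one like that of Gas5 common.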

How the data were processed

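Total RNA of B220+ splenocytes was depleted of ribosomal RNA and sequenced from a stranded kit, paired-end. The authors trimmed reads with Trimmomatic, mapped them to mm10 (GRCm38) with TopHat2 (version 2.1.0 in the submitters' processing notes) and counted them on Ensembl genes with HTSeq. They deposited raw counts, neither normalized nor pooled. The strand setting, overlap mode and Ensembl release are not given in the sources used here.

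The summary lines of HTSeq entered neither the library sizes nor the tests. Of uniquely aligned reads, 37.8% to 47.5% were assigned to no feature and 0.492% to 0.539% were ambiguous. A gene was tested if 2 or more libraries had 10 or more counts (14554 genes), in R 4.3.3 with edgeR 4.0.16 (TMM, quasi-likelihood test, Benjamini-Hochberg adjustment over all tested genes, threshold 0.05), which was tested on simulated data. Alternatives used DESeq2 1.42.0, other scalings, filters, a replicate block and leaving out each library. Replicates differed by more than sampling noise (chi-square per degree of freedom 9.79 and 21.9). Symbols, positions and exon lengths came from GENCODE and promoters and microRNAs from RefSeq, which held no promoter entry for Neat1 and Mir142hg.

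The members and lists were chosen with earlier results of these data known. Named genes are all members, their neighbors and overlapping genes with values, up to 4 genes per list and direction with the smallest p among those past the threshold whose genotypes do not overlap, the 2 genes nearest in profile to each member, and Zbtb17. Further snoRNA and microRNA hosts and Xist were named after their values were seen. The values of 2 neighboring genes are not reported here.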

Additional observations from a re-analysis of the deposited data

How the results depend on the processing

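All 7 members kept their direction in every alternative that gave a value, and Neat1 and Snhg5 kept their call in all of them. Mir142hg could not be tested at a mean of 30 RPM. With scaling to all uniquely aligned reads, Malat1 was at −0.16 and Kcnq1ot1 at −0.15, below the threshold, 2 members were called lower, and Supt4a (0.0635) and Syncrip (0.25) changed sign, as did the neighbors Frmd8 (0.13), Taf12 (0.21) and Zfp949 (0.15), which passed in neither fit. The same scaling called 6410 genes higher and 731 lower (89.8% of calls higher), library totals without TMM factors 63.9% higher, and the fit reported 3076 and 2746 (52.8%). The filter at 30 RPM left 1464 higher and 1282 lower, in fewer genes tested (6052), and 3 snoRNA hosts higher. Leaving out 1 library, where the lone sample of a genotype is assumed to vary like the other pair, gave Malat1 −0.51 to −0.34, Gas5 0.23 to 0.32, Snhg12 0.20 to 0.39, Kcnq1ot1 −0.51 to −0.31 and Mir142hg −0.87 to −0.52. Members called higher ranged from 1 to 3, members lower from 1 to 3, snoRNA hosts higher from 2 to 6, all genes higher from 1367 to 3017 and lower from 837 to 2722, each lowest without MIZ-1WT replicate 1. Without that library 62.0% of calls were higher and without MIZ-1WT replicate 2 60.9%. The call was lost for Zbtb37 without MIZ-1WT replicate 1 (adjusted p = 0.0854), and for Tspoap1 (0.0604 and 0.0876) and Slc3a2 (0.0707 and 0.0959) without either. Supt4a lost it in 7 alternatives. The cause was not tested. Same-numbered replicates did not deviate together (r = −0.07 across genes). With so few samples this r cannot tell whether they shared a day or litter, which is not given in the sources used here. With the replicate block 2633 genes were called higher and 2099 lower, all 7 members stayed past the threshold, 3 snoRNP genes rose, and Supt4a did not (adjusted p = 0.0678). Taken over all tested genes, the spread between 2 libraries exceeded counting error, which limits precision. This need not hold for genes with few counts, such as Mir142hg (531 to 897 counts) and Snora16a (32 to 47 counts).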

Other observations

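Protein-coding genes also carry snoRNAs in their introns. Of 212 tested coding genes whose span holds a snoRNA gene on the same strand, 66 rose and 30 fell (median log2 fold change 0.08). Whether each of these snoRNA genes lay in an intron was not checked. The shares are 31.1% and 14.2%, against 22.7% and 20.2% of protein-coding genes and 21.1% and 18.9% of all genes. With scaling to all uniquely aligned reads 131 rose and 1 fell, while the median relative to that of all genes stayed at 0.09. The 4 genes with the smallest p among those that rose were Top2a, the topoisomerase that untangles chromosomes (1.93 ± 0.10 (SE), adjusted p = 0.000739), the condensin subunit gene Ncapd2 (1.07 ± 0.05), the abscission factor gene Cep55 (1.78 ± 0.10) and the polymerase epsilon gene Pole (1.12 ± 0.07). Among those that fell were Ints4 (−0.54 ± 0.06 (SE), adjusted p = 0.00201), a subunit of the Integrator complex, and Trmt10c (−0.43), N4bp2 (−0.39) and Khdc4 (−0.25). Without MIZ-1WT replicate 1, and without MIZ-1WT replicate 2, fewer of them were called in both directions, as was true over all genes. Fewer also fell without MIZ-1△POZ replicate 1. The counts for these hosts therefore depend on which libraries are included.

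The 20 lncRNAs with the highest CPM per kb included Malat1, Gas5, Snhg5 and Mir142hg. Of the other 16, 6 were higher, 5 lower and 5 did not pass. Over all 20, 8 rose and 7 fell (40% and 35%, against 21.1% and 18.9% of all genes), and 12 and 4 with scaling to all uniquely aligned reads. Without MIZ-1WT replicate 1 the counts were 3 and 3, and without MIZ-1WT replicate 2 they were 5 and 5. Gm26917 rose from 2071 and 2058 CPM to 3468 and 3607 CPM (0.78 ± 0.06 (SE), adjusted p = 0.00115) and AW112010, an RNA of immune cells, from 51.9 and 58.9 to 97.6 and 78.3 CPM (0.67 ± 0.12). Ifi30, which encodes a lysosomal thiol reductase but carries a noncoding class in this annotation, was at 0.32. Gm15675 fell from 188 and 199 to 77.6 and 94.0 CPM (−1.17 ± 0.10) and F730311O21Rik from 359 and 280 to 144 and 147 CPM (−1.14 ± 0.12), changes close in size to that of Neat1, and BE692007 (−0.51) and 1700020I14Rik (−0.30) were lower too. Of 943 lncRNAs tested in all, 101 rose and 138 fell, with a median of −0.12. These are 10.7% and 14.6%, both below the 21.1% and 18.9% of all genes. With scaling to all uniquely aligned reads 205 rose and 69 fell, where 6410 of all 14554 genes rose and 731 fell. The median relative to that of all genes was −0.11 under both scalings.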
